A study of Mus musculus with 2 samples.

Results

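The CD4 T cells of the second sequencing run were 287 of the 20568 barcodes in the 2 count tables of that run, and the whole series held 43965 barcodes in 4 tables. A barcode, which marks one droplet, was counted as a member when it held at least 1 unique molecular identifier (UMI, one counted RNA molecule) of *Cd3e* and at least 1 of *Cd4*, and 0 of *Cd8b1*, *Csf1r* and *Cd79a*. Of the members, 280 came from PEP-619WW and 7 from PEP-WT. Members with at least 1 *Foxp3* UMI are called Foxp3+ here and members with 0 are called Foxp3-. The 280 PEP-619WW members split into 113 Foxp3+ and 167 Foxp3- barcodes. The same rule applied to the PEP-619WW table of the first run gave 172 barcodes, 14 Foxp3+ and 158 Foxp3-. Members were thus chosen by the measured UMIs of these 6 genes, so their own levels are descriptions only, and so is every difference between Foxp3+ and Foxp3- barcodes that follows from the split.

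The series' text and the study's methods describe C57BL/6 mice infected with the LCMV-cl13 strain of lymphocytic choriomeningitis virus, which persists in its host, and taken at day 8, without saying how the runs differ. PEP-619WW mice carry a pro-autoimmune allele of *Ptpn22*, made by CRISPR/Cas9 editing, and PEP-WT mice the wild type allele. Per the study's methods, spleens of 4 to 5 mice of matched age and sex were pooled within a genotype, sorted for live CD45+ cells and run on the 10x Genomics 3' platform. Each genotype therefore had 1 library per run and no replicate, so no test was possible: intervals are 95% intervals for counting error alone, exact Poisson for summed UMIs, exact binomial for shares and exact conditional for ratios. *Ptpn22* is read from its 3' end and does not check the allele.

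The 2 runs stood apart before any T cell was chosen. The sample labels give Liver as the tissue, Jurkat, a human T cell line, as the cell line and tumor infiltrating cells as the cell type, whereas the methods describe spleen, and the albumin gene *Alb* had 0 UMIs in all 4 libraries. Barcodes of the PEP-619WW libraries with 0 *Cd3e* UMIs held B cell and plasma cell genes at a summed 1060 CPM (counts scaled to a total of 1000000 UMIs) in run 2 against 95372 CPM in run 1, and macrophage and monocyte genes at 20199 against 5703 CPM. *Xist*, transcribed from the inactive X chromosome, had 5 UMIs in the whole PEP-619WW run 2 library and 45556 in run 1, while 4 Y-linked genes together had 8893 and 0. In the PEP-WT run 2 library *Xist* had 18435 UMIs and the Y-linked genes 4892. The run 2 libraries of the genotypes thus differed in these genes, although the methods give matched sex. Among gated PEP-619WW barcodes, 0 of 280 in run 2 and 155 of 172 in run 1 held *Xist*. The 6 melanocyte genes summed to 50.2 CPM in run 2 barcodes with 0 *Cd3e* UMIs, 16.7% of which held one, against 4.73 CPM and 2.35% in run 1. *Mitf*, which macrophages can also express, made up 32.6 of the 50.2 CPM, and *Dct*, a melanin synthesis gene, was at 7.85 CPM with 1 UMI in run 1. The cell numbers stated in the methods for both genotypes equal the barcodes of the run 2 tables and not those of run 1, which ties the described spleen experiment to run 2 by number. The labels and these levels do not settle the tissue of either run. Infection and day are given for the series and were not checked for each run. Tissue, sex and run cannot be told apart in any comparison between the runs. Total UMIs ranged from 55504449 to 77916082 per library, and 0 gated barcodes were shared between libraries.

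CD4 T cells carry a T cell receptor that reads peptides held by MHC class II molecules, and they divide into lineages. Regulatory T cells are set by the transcription factor Foxp3 and hold other immune cells in check, in part through the inhibitory receptor CTLA-4 and the high-affinity interleukin-2 receptor. Effector lineages include Th1 cells, which make interferon gamma, type 2 cells, which make interleukins 5 and 13, and follicular helper cells, which enter B cell follicles through CXCR5.

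The gate took a similar share of both PEP-619WW libraries and almost none of the PEP-WT run 2 library, and Foxp3+ barcodes were several-fold more frequent within the run 2 gate. The gated share was 2.54% of 11029 barcodes (2.25 to 2.85) in PEP-619WW run 2, 2.01% of 8576 (1.72 to 2.32) in PEP-619WW run 1 and 1.49% of 14821 in PEP-WT run 1. In PEP-WT run 2 it was 0.0734% of 9539 (0.0295 to 0.151). That library held *Cd3e* in only 72 barcodes, 12 of them with *Cd4*, whereas PEP-619WW run 2 held *Cd3e* in 1322, so T cells as a whole were rare in it. In PEP-619WW run 2, 438 barcodes had both *Cd3e* and *Cd4*, and 51 of them held *Cd8b1*, 113 *Csf1r* and 13 *Cd79a*. *Ptprc*, which encodes CD45, was found in 95.7% of the 280 gated barcodes. *Trac*, the constant region of the receptor alpha chain, was at 583 CPM in Foxp3+ and 544 CPM in Foxp3- barcodes of run 2, against 18.3 CPM in barcodes of that library with 0 *Cd3e* UMIs. *Foxp3* (chrX:7573644-7595245, GRCm38) was seen in 40.4% of the gated barcodes in run 2 (34.6 to 46.4) and in 8.14% in run 1 (4.52 to 13.3).

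Depth decides how often a gene is seen, and the groups differed in it. The median UMI count was 7010 in Foxp3+ and 2956 in Foxp3- barcodes of run 2, against 5929.5 and 5857 in run 1. With every barcode thinned to 2000 UMIs and shallower ones left out (45 in run 2, 2 in run 1), the Foxp3+ share was 24.5% (19.3 to 30.7) in run 2 and 4.04% (1.67 to 8.30) in run 1, a difference of 20.5 percentage points (14.0 to 26.8). Thinned to 1000 UMIs the shares were 14.1% and 2.18%. The run 2 share lay above the run 1 share at each depth. Barcodes with 0 *Cd3e* UMIs held *Foxp3* in 0.917% of cases in run 2 (median 3568 UMIs) and 0.0844% in run 1 (median 2924 UMIs). Whether that *Foxp3* came from free RNA or from T cells whose *Cd3e* was not seen was not tested.

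**Figure D1:**
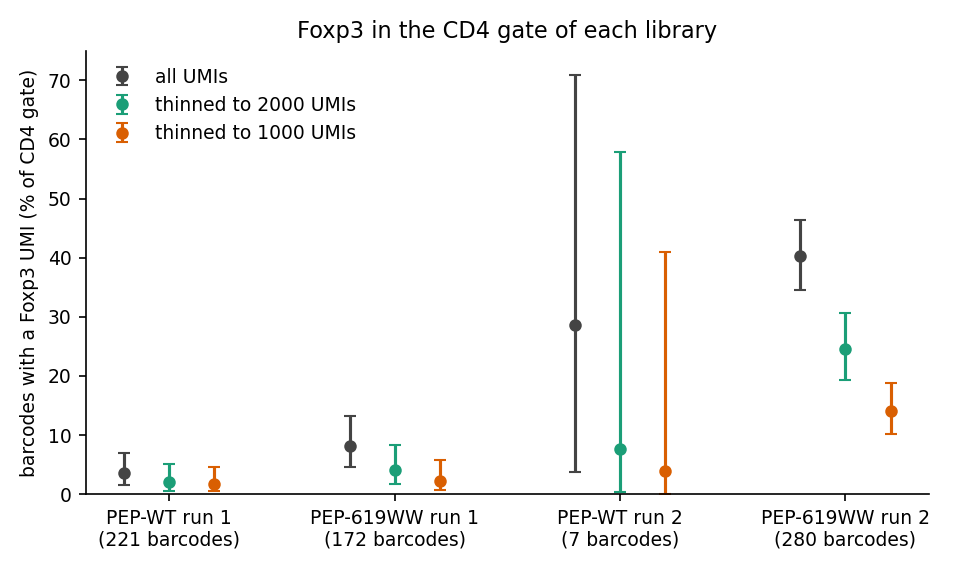
Share of gated barcodes with at least 1 Foxp3 UMI (y axis, percent) in each of the 4 libraries (x axis) with all UMIs and thinned to 2000 and 1000 UMIs per barcode, with bars for 95% binomial intervals. In PEP-619WW the run 2 share is 40.4%, 24.5% and 14.1% and the run 1 share 8.14%, 4.04% and 2.18%, and the 7 PEP-WT barcodes of run 2 give wide intervals.

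Barcodes with a single *Foxp3* UMI nearly all carried other regulatory genes. Of the 113 Foxp3+ barcodes in run 2, 38 had exactly 1 *Foxp3* UMI, 29 had 2, 19 had 3 and the highest had 11. At least 2 of *Il2ra*, *Ikzf2*, *Ctla4* and *Tnfrsf18* were seen in 37 of the 38 barcodes with 1 UMI, in all 75 with more, and in 64 of the 167 with 0 (38.3%). After thinning to 2000 UMIs this regulatory pattern was present in 85.0% of Foxp3+ and 29.4% of Foxp3- barcodes of run 2, and in 86.9% and 19.3% of those of run 1. The Foxp3- set of run 2 thus included barcodes with regulatory genes. Just outside the gate, 438 barcodes met every rule but *Cd4*, and 13.5% of them held *Foxp3*. Another 28 were left out for exactly 1 *Csf1r* UMI. Of those 28, 14 held *Foxp3*, their median depth was 14380.5 UMIs, and macrophage genes summed to 9228 CPM in them.

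Foxp3+ barcodes of run 2 carried several genes of the regulatory lineage at higher levels than Foxp3- barcodes. Of 4942 genes with at least 50 UMIs over both groups, 203 (4.11%) were at least 2-fold higher in Foxp3+ barcodes and 139 (2.81%) at least 2-fold lower, with a median log2 ratio of 0.07 over all genes tested. These shares stand beside every list count within run 2 that follows. With the mean of per-barcode CPM the split was 345 higher and 156 lower, and scaled by the median of ratios 176 and 159. Of 16 core regulatory genes 13 were tested, and 5 were at least 2-fold higher and 1 lower, with a median of 0.81. *Ikzf2*, which encodes the regulatory T cell factor Helios, was seen in 109 of 113 Foxp3+ and 50 of 167 Foxp3- barcodes. Its level was 1241 CPM in Foxp3+ barcodes and 392 CPM in Foxp3- barcodes, a log2 ratio of 1.66 (1.48 to 1.85). Thinned to 2000 UMIs it was seen in 86.9% and 27.3% of barcodes, with the groups still split by *Foxp3* at full depth.

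The 13 core genes ranged from -1.60 to 2.36 in log2 ratio, with 10 intervals above 0 and 1 below. *Il2ra*, the alpha chain of the interleukin-2 receptor, was at 318 and 98.1 CPM (log2 ratio 1.70, 1.33 to 2.08). *Ctla4* was at 436 and 151 CPM (1.53, 1.23 to 1.84). *Ikzf4*, which encodes the Helios relative Eos, was at 99.5 and 19.4 CPM (2.36, 1.57 to 3.25). The TNF receptor gene *Tnfrsf4*, which encodes OX40, was at 888 and 421 CPM (1.08, 0.89 to 1.26), and *Tnfrsf18*, which encodes GITR, stayed under 2-fold at 583 and 332 CPM. The member that was lower was *Nrp1*, a semaphorin receptor often used to mark regulatory T cells that arise in the thymus, at 43.9 and 133 CPM (-1.60, -2.14 to -1.08). *Nrp1* was at 72.5 CPM in the barcodes of that library with 0 *Cd3e* UMIs.

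**Figure D2:**
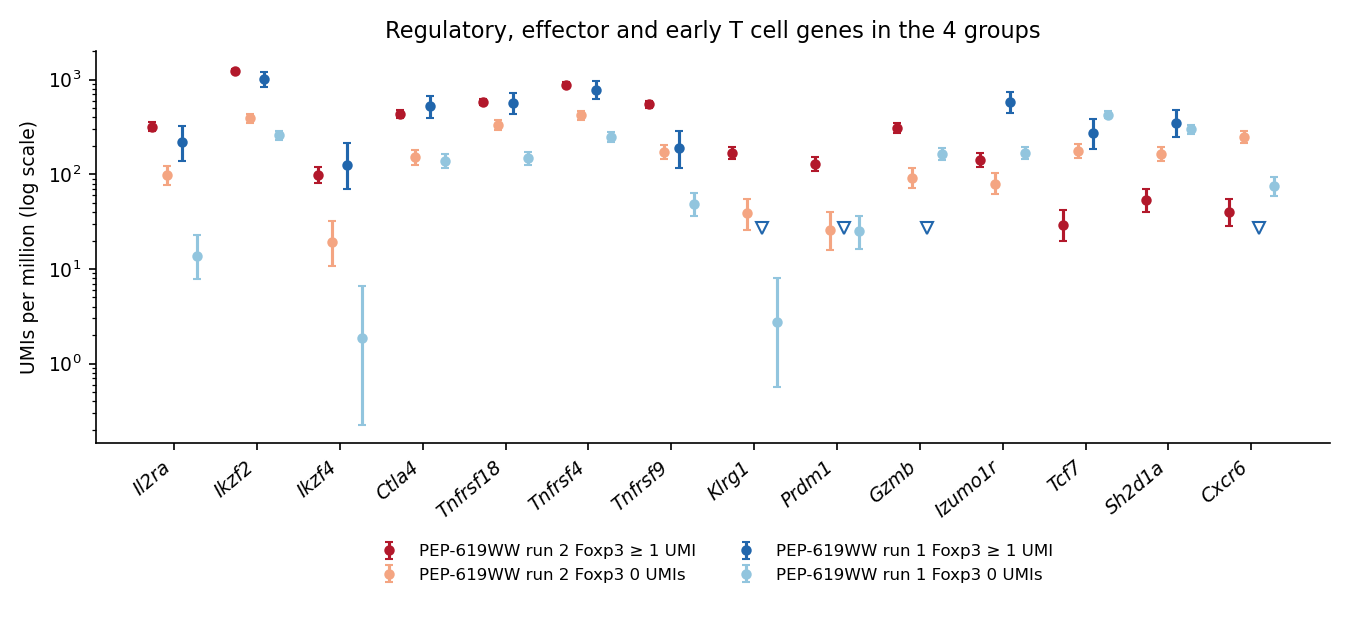
Levels of regulatory, effector and early T cell genes (y axis, UMIs per 1000000 on a log scale, bars for 95% Poisson intervals) in Foxp3+ and Foxp3- gated barcodes of the PEP-619WW libraries of run 2 and run 1, with open triangles for genes at 0 UMIs drawn at the level of 3 counts. Ikzf2 lies at 1241 and 392 CPM in run 2 and at 1014 and 258 CPM in run 1, and Gzmb, Klrg1 and Prdm1 are at 0 UMIs in the 14 Foxp3+ barcodes of run 1.

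Genes of effector and tissue-dwelling regulatory T cells were mixed, with several higher in the Foxp3+ barcodes of run 2. Of 21 listed genes 14 were tested, and 5 were at least 2-fold higher and 0 lower, with a median log2 ratio of 0.69. Intervals lay above 0 for 8 and below 0 for 3, and *Cd83*, *Il1r2* and *Gata3* had the lowest log2 ratios at -0.92, -0.83 and -0.48. *Klrg1*, a receptor of terminally differentiated lymphocytes, was at 168 and 38.7 CPM (2.12, 1.55 to 2.73). *Prdm1*, which encodes the effector factor Blimp-1, was at 129 and 25.8 CPM (2.32, 1.63 to 3.08). *Tnfrsf9*, which encodes the costimulatory receptor 4-1BB, was at 549 and 173 CPM (1.67, 1.39 to 1.95). *Gzmb*, the cytotoxic protease granzyme B, was at 309 and 91.6 CPM (1.76, 1.38 to 2.15). The anti-inflammatory cytokine gene *Il10* had 24 UMIs in 10 of the Foxp3+ barcodes and 0 UMIs in the Foxp3- barcodes, too few for the 50 UMI minimum. Outside the lists, the largest bounds belonged to genes with other roles. *Cmtm7*, a membrane protein gene, was at 627 and 182 CPM (1.79). The muscle filament gene *Neb* was at 111 and 19.4 CPM (2.52), and *Snx9*, a sorting nexin gene, at 96.6 and 20.6 CPM (2.23). *Chchd10*, which encodes a mitochondrial protein, was at 169 and 36.1 CPM (2.22), and the unnamed transcript *1500009L16Rik* at 99.5 and 5.16 CPM (4.27, 2.87 to 6.17).

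Genes of dividing cells were higher throughout the list. All 18 cell cycle genes were tested, 12 were at least 2-fold higher in Foxp3+ barcodes, all 18 had intervals above 0, and the median log2 ratio was 1.16. *Mki67*, which marks cells in cycle, was at 647 and 222 CPM (1.54, 1.30 to 1.79). *Top2a*, which untangles replicated DNA, was at 488 and 184 CPM (1.40). The mitosis genes *Cenpf*, *Cdc20* and *Kif4* had log2 ratios of 2.25, 2.49 and 2.62. At 2000 UMIs, at least 2 of *Mki67*, *Top2a*, *Birc5* and *Cdk1* were seen in 31.0% (22.3 to 40.5) of Foxp3+ and 9.06% (4.94 to 15.8) of Foxp3- barcodes. Without the deepest 10% of gated barcodes the list's median was 0.54. The part of droplets with more than 1 cell in this was not tested.

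Many resting and some follicular helper genes were lower in Foxp3+ barcodes, and Th1 genes were mixed. Of 12 naive and recirculating T cell genes tested, 6 were at least 2-fold lower and 0 higher, with a median log2 ratio of -0.96. Of their intervals, 9 lay below 0 and 1 above. *Tcf7*, which encodes the T cell memory and stemness factor TCF-1, was at 29.3 and 178 CPM (-2.61, -3.23 to -2.03), and was seen in 3.15% and 29.0% of barcodes at 2000 UMIs. *Klf2*, which controls exit from tissue, was at 98.5 and 323 CPM (-1.71). Of 9 follicular helper genes tested, 5 were lower and 0 higher, with 5 intervals below 0, 1 above and a median of -1.30. Among the 5 was *Sh2d1a*, which encodes the adaptor SAP, at 53.7 and 165 CPM (-1.62). The follicular helper pattern, at least 2 of *Cxcr5*, *Bcl6*, *Sostdc1*, *Il21* and *Tbc1d4*, was rare in both groups. At 2000 UMIs it was seen in 0.14% (0 to 3.39) of Foxp3+ and 1.30% (0.19 to 5.53) of Foxp3- barcodes, intervals that overlap. Of 18 Th1 and cytotoxic genes tested, 5 were lower and 2, *Gzmb* and *Ccl3*, higher, with a median of -0.31, and 8 intervals lay below 0 and 5 above. The Th1 pattern, at least 2 of *Ifng*, *Cxcr6*, *Nkg7*, *Ccl5* and *Tbx21*, was seen at 2000 UMIs in 26.4% (18.1 to 35.6) of Foxp3+ and 34.8% (26.9 to 44.1) of Foxp3- barcodes, intervals that overlap. *Cxcr6*, a chemokine receptor gene of tissue T cells, was at 39.99 and 246 CPM (-2.62, -3.15 to -2.13), and *Ifng* had 8 and 47 UMIs.

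T cell identity genes were mostly lower by less than 2-fold. Of 14 tested, 0 were higher and 2, *Trbc1* among them, at least 2-fold lower, 10 intervals lay below 0 and 2 above, and the median was -0.58. *Trac*, the receptor alpha chain constant region, was at 583 and 544 CPM (0.10, -0.08 to 0.28). *Itgb1*, an integrin subunit gene, was at 129 and 636 CPM (-2.30). *Ms4a4b*, a T cell membrane gene, was at 136 and 741 CPM (-2.45), and *Themis*, which tunes receptor signals, was at 13.7 and 125 CPM (-3.20).

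**Figure D3:**
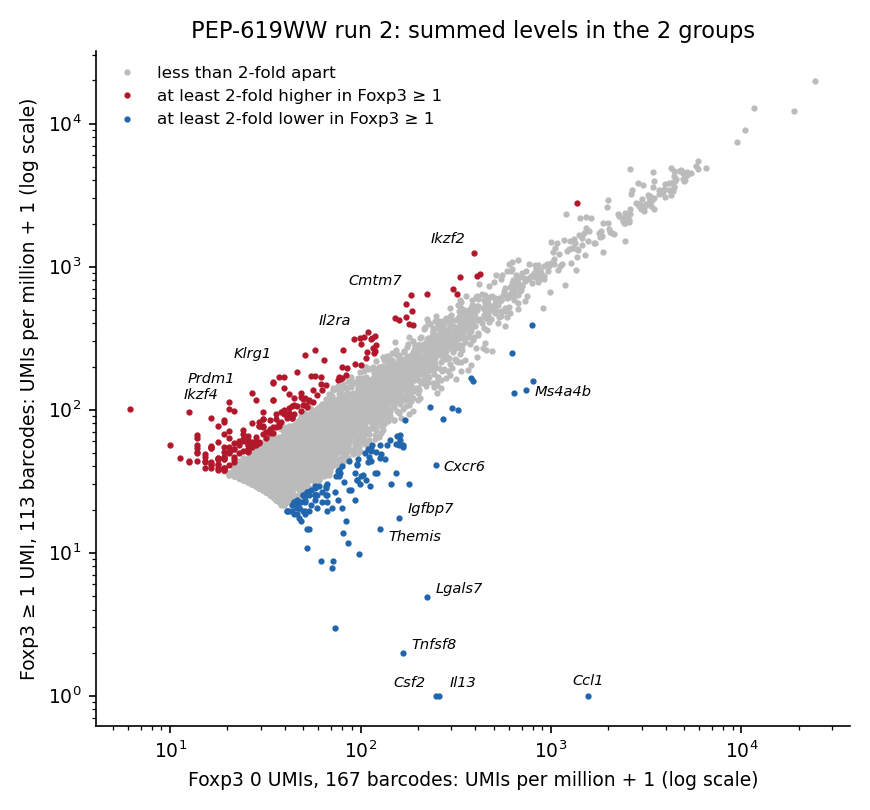
Level of each gene with at least 50 UMIs in Foxp3- (x axis) and Foxp3+ (y axis) gated barcodes of PEP-619WW run 2, both as CPM + 1 on log scales, with the genes that chose the members left out. Of 4942 genes, 203 (red) are at least 2-fold higher and 139 (blue) at least 2-fold lower in Foxp3+ barcodes, and Ccl1, Il13 and Csf2 have 0 UMIs in them.

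Markers of other cells moved with the same split. The 14 macrophage and monocyte genes summed to 3362 CPM in Foxp3+ and 2357 CPM in Foxp3- barcodes, and all 14 were seen in both groups. The 12 dendritic cell genes summed to 3639 and 3411 CPM, the 8 B cell and plasma cell genes to 418 and 150 CPM, and the 5 neutrophil genes to 468 and 115 CPM with *Ly6g* at 0 in both. The neutrophil difference reversed when at least 2 *Foxp3* UMIs were required, with *S100a8* and *S100a9* going from 2.01 and 2.19 to -3.12 and -2.28 in log2 ratio. *Lyz2*, a myeloid lysozyme gene, was at 691 and 306 CPM, against 5670 CPM in barcodes of the library with 0 *Cd3e* UMIs. The part of such RNA in the differences above was not tested. Without every barcode that held *C1qa*, *C1qb* or *Lyz2* the medians of the core regulatory and naive lists lay farther from 0, at 1.09 and -1.45, and those of the T cell identity and Th1 lists nearer, at -0.44 and -0.13. Of the 203 higher genes 28 stood below their level in barcodes with 0 *Cd3e* UMIs, as did 30 of the 139 lower genes.

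The genes farthest below their Foxp3- level were cytokines and secreted factors, most of them seen in few barcodes. *Ccl1*, a chemokine that attracts cells with the receptor CCR8, had 1216 UMIs in Foxp3- and 0 in Foxp3+ barcodes, at least 536-fold lower against a floor of 3 counts over the group. *Il13* (chr11:53631324-53634702) had 199 and 0 UMIs, at least 87.7-fold lower. *Csf2* (chr11:54247271-54249667), which encodes the myeloid growth factor GM-CSF, had 191 and 0 UMIs, but 171 of them lay in 1 barcode. *Ccl1*, *Il13* and *Csf2* passed the UMI minimum through the Foxp3- barcodes alone. That they were lower in Foxp3+ barcodes thus follows in part from the filter. *Tnfsf8*, the CD30 ligand, had 129 and 1 UMIs, *Lgals7*, which encodes galectin-7, had 172 and 4, and the chemokine gene *Xcl1* 56 and 2. At 1000 UMIs the log2 values of *Tnfsf8*, *Lgals7* and *Xcl1* went from -7.41, -5.83 and -5.21 to -2.39, -2.19 and -0.45. *Igfbp7*, which encodes a secreted growth factor binding protein, was at 159 and 16.6 CPM (-3.26), and the calmodulin-binding gene *Nrgn* at 96.8 and 8.78 CPM (-3.46).

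Any UMI of *Ccl1*, *Il13*, *Csf2* or *Il5* was held by 20 of the 167 Foxp3- barcodes, a set chosen after the values were seen and so given with no comparison of those 4 genes. *Ccl1* was present in 17 of them, *Csf2* in 7, *Il13* in 5 and *Il5* (chr11:53720794-53725106) in 4, and each of the 5 with *Il13* also held *Ccl1*. The counts were concentrated: the top *Ccl1* barcodes had 397 and 389 UMIs, and the top *Il13* barcodes 89, 82 and 25. *Penk*, the enkephalin precursor gene, was seen in 15 of the 20 and in 5 of the other 147 Foxp3- barcodes, with 403 of its 619 UMIs in 1 barcode. *Igfbp7* was seen in 17 and 5, *Lgals7* in 16 and 5, *Tnfsf8* in 17 and 21, and *Tnfsf11*, the RANK ligand gene, in 14 and 13. *Xcl1* was seen in 4 and 4, and 41 of its 56 UMIs lay in the other 147 barcodes, as did 42 of the 129 of *Tnfsf8*. *Gata3*, the type 2 lineage factor, was seen in 15 and 46, and *Tcf7* in 1 and 67.

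The 20 barcodes were deep, with a median of 9253.5 UMIs against 2805 in the other 147, which raises the chance of seeing any gene in them. All 20 held a T cell receptor constant region UMI, as did 143 of the other 147. *C1qa* was seen in 0 of the 20 and *Lyz2* in 6, against 4 and 36 of the others. *Tcf7* was seen less often in the deeper set, and the part of depth in the other differences was not tested.

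**Figure D4:**
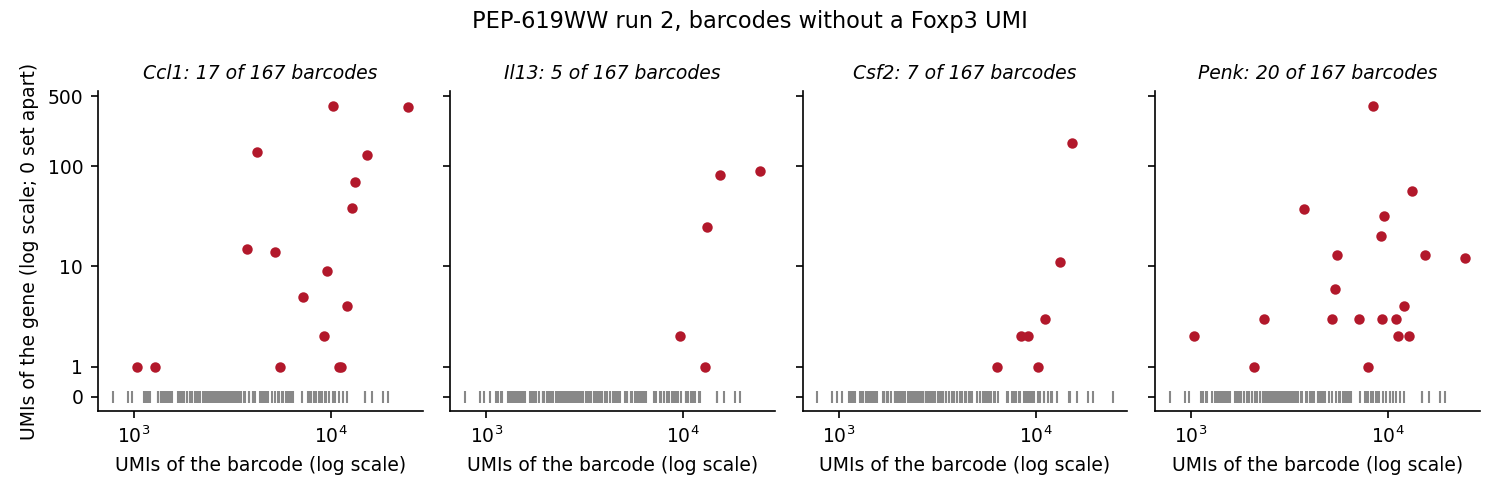
UMIs of Ccl1, Il13, Csf2 and Penk (y axis, log scale with 0 set apart) against all UMIs of the barcode (x axis, log scale) for each of the 167 Foxp3- gated barcodes of PEP-619WW run 2, with grey ticks for barcodes at 0. The highest points are 397 UMIs for Ccl1, 89 for Il13, 171 for Csf2 and 403 for Penk.

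In the PEP-619WW library of run 1 the same split of the gate gave 133 genes (3.88%) at least 2-fold higher and 322 (9.4%) lower in its 14 Foxp3+ barcodes, of 3425 tested. The Foxp3+ and Foxp3- groups held 110474 and 1082811 UMIs there. A gene thus passed the minimum mostly through the Foxp3- barcodes, which favours genes lower in Foxp3+ barcodes. Of the 12 leading higher genes of run 2, *Cenpf*, *Chchd10*, *Cdc20* and *Ikzf2* had a ratio in the same direction in run 1, *Cmtm7* the opposite, and 7 were under 50 UMIs there. The run 1 intervals of *Chchd10* and *Cdc20* included 0. *Cenpf* was seen in 3 of the 14 Foxp3+ barcodes there, with 16 of its 26 UMIs in 1 barcode. Of the 12 leading lower genes, 7 had the same direction (*Csf2*, *Tnfsf8*, *Nrgn*, *Themis*, *Gm12840*, *Ms4a4b* and *Cxcr6*), 0 the opposite, and 5 were under 50 UMIs. The minimum in run 1 favours that direction, and *Nrgn*, with 0 and 185 UMIs, passed it through the Foxp3- barcodes alone. The share of all tested genes with the same direction in both runs is not given, so these counts say little about agreement between runs. *Ikzf2* was at 1014 and 258 CPM in run 1 (1.98, 1.65 to 2.30) and *Ctla4* at 525 and 139 CPM (1.92, 1.46 to 2.37). *Gzmb* was at 0 UMIs in the Foxp3+ barcodes of run 1 and 178 in the Foxp3- barcodes, the reverse of run 2. In run 1 it passed the minimum through the Foxp3- barcodes alone.

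The comparisons between runs share their groups with those within runs and are not independent of them. Between runs, Foxp3+ barcodes had most core regulatory genes within 2-fold and differed in some effector and cell cycle genes. Of 3493 genes tested, 601 (17.2%) were at least 2-fold higher in run 2 and 167 (4.78%) lower, and the median log2 ratio of all genes was 0.20. Scaled by the median of ratios, the split was 475 higher and 251 lower, so the excess of higher genes depends in part on the scale. The groups held 1025147 and 110474 UMIs, so a gene passed the minimum of 50 mostly through run 2, which favours genes higher there. With genes instead tested at a mean of at least 50 CPM over the 2 groups, an alternative chosen after seeing the data, 358 were higher and 268 lower of 3096. With intervals that must also lie beyond 0 the split was 399 and 154, and with the barcode holding the most UMIs of each gene left out of each group, 1020 and 72. That last alternative takes 1 of 14 barcodes in run 1 and 1 of 113 in run 2, which favours genes higher in run 2. Of 12 core regulatory genes tested 2 were higher and 1 lower, with a median of 0.13 that was -0.06 under that scaling. *Ikzf2* had a log2 ratio of 0.29 (0.01 to 0.58), *Ctla4* -0.27 (-0.67 to 0.15), *Tnfrsf18* 0.06 (-0.32 to 0.46), *Tnfrsf4* 0.17 (-0.15 to 0.51) and *Il2ra* 0.55 (-0.05 to 1.21). The 3 core genes that differed were *Capg*, an actin-capping gene, at 535 CPM in run 2 and 109 in run 1, *Socs2*, a cytokine signal inhibitor, with 85 and 2 UMIs, and *Izumo1r*, which encodes folate receptor 4, at 141 and 579 CPM (-2.03, -2.47 to -1.59). *Capg* was at 457 CPM in run 2 barcodes with 0 *Cd3e* UMIs.

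Several effector genes were found in Foxp3+ barcodes of run 2 and not detected in the 14 of run 1, where 3 counts would be 27.2 CPM. They passed the minimum through run 2 alone, so that they were higher there follows in part from the filter. *Gzmb* had 317 UMIs in 51 barcodes of run 2 and 0 in run 1, at least 11.4-fold higher. *Klrg1* had 172 and 0 UMIs (at least 6.18-fold), *Prdm1* 132 and 0 (at least 4.74-fold) and *Fgl2*, which encodes a suppressive fibrinogen-like protein, 157 and 0 (at least 5.64-fold). Thinned to 2000 UMIs, *Gzmb* was seen in 30.6% (22.3 to 40.5) of Foxp3+ barcodes in run 2 and 0 of 14 in run 1 (0 to 23.2), intervals that overlap. The log2 bounds at that depth were 1.94 for *Gzmb*, 1.04 for *Klrg1*, 0.48 for *Prdm1* and 0.91 for *Fgl2*, the last 2 under 2-fold. At 1000 UMIs the bound for *Gzmb* was 0.91, also under 2-fold, and *Klrg1*, *Prdm1* and *Fgl2* had no value. Of 12 effector and tissue genes tested, 5 were higher and 2, *Batf* and *Il1r2*, lower, with a median of 0.54 that was -0.18 when barcodes were thinned to 1000 UMIs. Among all genes tested, 17.2% were higher and 4.78% lower. In barcodes with 0 *Cd3e* UMIs 11 of the 21 listed genes were at least 2-fold higher in run 2 and 1 lower, with a median of 1.38. *Lgals1*, which encodes galectin-1, was at 2175 CPM in run 2 and 136 in run 1 (4.002, 3.28 to 4.84), with 1374 CPM in run 2 barcodes with 0 *Cd3e* UMIs. The chemokine gene *Ccl5* was at 947 and 181 CPM (2.39), with 843 CPM in those barcodes, and 189 of its 971 UMIs lay in 1 barcode. *Cmtm7* was at 627 and 63.4 CPM (3.31), with 167 CPM in those barcodes.

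Some cell cycle genes were higher in the run 2 Foxp3+ barcodes as well. Of 18 tested, 8 were at least 2-fold higher and 0 lower, beside 17.2% higher among all genes tested, and 12 intervals lay above 0. The median was 0.70, or 0.30 thinned to 1000 UMIs, whereas in barcodes with 0 *Cd3e* UMIs 14 were lower and 0 higher, with a median of -1.89. *Mki67* was at 647 and 109 CPM (2.57, 1.76 to 3.53), *Pclaf*, which encodes a PCNA-binding protein, at 423 and 54.3 CPM (2.96), and the linker histone gene *Hist1h1b* had 870 UMIs in 40 barcodes and 1 UMI (6.55, 4.07 to 11.9). *Hist1h2ae* and *Hist1h1e* had 225 and 277 UMIs in run 2 and 1 and 3 in run 1. Thinned to 1000 UMIs the log2 values of *Pclaf* and *Hist1h1b* were 0.27 and 1.27. At 2000 UMIs those of *Hist1h2ae* and *Hist1h1e* were 0.39 and 2.46. Histone genes have near-identical copies, so reads may be split among them. At 2000 UMIs the cycling pattern was seen in 31.0% of Foxp3+ barcodes in run 2 and in 12.1% of the 14 in run 1 (1.78 to 42.8), and these intervals overlap.

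Follicular helper genes were lower in run 2 Foxp3+ barcodes, and genes of resting T cells were mixed. Of 7 follicular helper genes tested, 6 were at least 2-fold lower and 0 higher, with a median log2 ratio of -2.03, beside 4.78% lower among all genes tested. The follicular helper pattern was seen at 2000 UMIs in 0.14% (0 to 3.39) of Foxp3+ barcodes in run 2. In run 1 it was seen in 5.31% of the 14 (0.18 to 33.9), and these intervals overlap. Each is the interval of the expected count rounded to a whole number, and so is approximate. *Sh2d1a* was at 53.7 CPM in run 2 and 353 in run 1 (-2.72, -3.34 to -2.09), and *Tbc1d4*, a glucose uptake regulator, at 41.9 and 308 CPM (-2.88). Of 11 naive and recirculating genes tested, 4 were lower and 2, *Ccr7* and *Klf2*, higher, with a median of -0.69 that was 0.34 with the barcode holding the most UMIs of each gene left out. That alternative takes a larger share of the run 1 barcodes, which favours genes higher in run 2. *Klf2* had only 1 UMI in run 1, and the ratio of *Ccr7*, 1.46 as counted, was -2.60 without the deepest 10% of gated barcodes. *Tcf7* was at 29.3 and 272 CPM (-3.21, -3.99 to -2.43), with a ratio of -1.25 without those barcodes. *Ms4a4b* and *Ms4a6b* had log2 ratios of -2.60 and -2.40. *Tespa1*, a T cell receptor signal gene, had a log2 ratio of -2.83, the noncoding gene *Zfas1* -2.47, *Utrn*, which encodes utrophin, -2.47, and the mitochondrial synthetase gene *Lars2* -2.21. The uncharacterised transcripts *Gm8369* and *2310001H17Rik* stood at -3.57 and -2.61. *Xist* had 0 and 169 UMIs, at least 523-fold lower, as in the whole library.

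The leading genes between the Foxp3- barcodes of the runs included secreted factors. Of 4917 genes tested, 244 (4.96%) were at least 2-fold higher in run 2 and 199 (4.05%) lower, with a median of 0.05. *Penk* had 619 UMIs in run 2 and 4 in run 1 (7.76, 6.39 to 9.64), *Ccl1* 1216 and 26 (6.03, 5.47 to 6.65), and *Il13* 199 and 0, at least 92.7-fold higher. *Il13* passed the minimum through run 2 alone, so that it was higher there follows in part from the filter. *Igfbp7*, *Lgals7* and *Xcl1* had log2 ratios of 4.84, 3.002 and 6.29, and *Xcl1* rested on 8 barcodes and was at 58.5 CPM in run 2 barcodes with 0 *Cd3e* UMIs. *Ramp1* and *Ramp3*, whose proteins pair with receptors for the CGRP and adrenomedullin peptides, had log2 ratios of 3.83 and 4.10. *Pmepa1*, a target of TGF-beta, was at 81.3 and 4.62 CPM (4.14), *Cd70*, a costimulatory ligand, at 58.1 and 5.54 CPM (3.39), and *Idi1*, an enzyme of isoprenoid synthesis, at 74.8 and 9.24 CPM (3.02). Thinned to 1000 UMIs the log2 values of *Cd70*, *Xcl1*, *Il13* and *Penk* were 0.36, 0.95, 1.82 and 4.65, the first 2 under 2-fold. The Y-linked *Ddx3y* had 72 and 0 UMIs, at least 33.5-fold higher.

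Several core regulatory genes were also higher in the Foxp3- barcodes of run 2, where depth was lower. Of 12 tested, 5 were higher and 1 lower, with a median of 0.68, beside 4.96% and 4.05% of all genes. In barcodes with 0 *Cd3e* UMIs 13 of the 16 were at least 2-fold higher in run 2 and 2 lower, with a median of 1.94 and sums of 1019 and 332 CPM, so most of the list was higher there too. *Il2ra* was at 98.1 CPM in run 2 and 13.9 in run 1 (2.82, 2.01 to 3.73), and *Tnfrsf18* at 332 and 148 CPM (1.17, 0.88 to 1.46), while *Ctla4* was at 151 and 139 CPM (0.12, -0.24 to 0.48). *Nrp1* was at 133 and 44.3 CPM (1.58), *Gata3* at 177 and 48.0 CPM (1.88, 1.41 to 2.37), and *Cxcr6* at 246 and 74.8 CPM (1.72). Of 18 Th1 and cytotoxic genes tested between these groups, 4, *Cxcr6* among them, were higher and 4 lower. Their median was -0.29, with 5 intervals above 0 and 9 below. *Icos* and *Batf*, genes of activated helper cells, were lower at log2 ratios of -1.28 and -1.46. Cell cycle genes were level, with 1 of 18 higher and a median of 0.08, but the median was 1.10 without the deepest 10% of gated barcodes.

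Follicular helper genes were lower in run 2 in this group too. Of 16 tested, 10 were at least 2-fold lower and 0 higher, with a median of -1.24, beside 4.05% lower among all genes. *Cxcr5* had 0 UMIs in the 167 barcodes of run 2 and 50 in 29 of the 158 of run 1, at least 11.9-fold lower. It passed the minimum through run 1 alone. *Tox2*, a factor of follicular helper cells, had 3 and 91 UMIs (-4.44, -6.74 to -2.85), *Il21* 9 and 70 UMIs (-2.48), and *Sostdc1*, a secreted factor of these cells, 16 and 155 UMIs (-2.79). At least 2 of *Cxcr5*, *Bcl6*, *Sostdc1*, *Il21* and *Tbc1d4* were seen at 2000 UMIs in 1.30% (0.19 to 5.53) of Foxp3- barcodes in run 2 and 16.1% (10.6 to 22.7) in run 1. The Th1 pattern was seen in 34.8% (26.9 to 44.1) and 27.0% (20.1 to 34.6), intervals that overlap.

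Other leading lower genes had varied roles. *Id3*, an inhibitor of E proteins, was at 15.5 CPM in run 2 and 126 in run 1 (-3.02, -4.01 to -2.17), and the inhibitory receptor gene *Cd160* at 6.45 and 78.5 CPM (-3.61). *Tcf7* was at 178 and 428 CPM (-1.26). The noncoding transcript *AY036118* was at 161 and 2588 CPM (-4.004), and stood at 130 and 2251 CPM in barcodes with 0 *Cd3e* UMIs, so the same difference ran through the libraries. *Ccdc28b* and the mitochondrial *mt-Atp8* had log2 ratios of -2.68 and -2.31, and *Gm8369* and *2310001H17Rik* were again lower at -2.31 and -2.95. *Xist* had 0 and 1474 UMIs, at least 352-fold lower. *Mcpt4*, a mast cell protease gene, owed its 101 UMIs in run 1 to 1 barcode.

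Many interferon-stimulated genes were lower and some glycolysis genes higher in run 2 in both groups. Of 12 interferon genes tested in Foxp3+ barcodes, 7 were at least 2-fold lower and 0 higher, with a median of -1.36, beside 4.78% lower among all genes. Of 21 tested in Foxp3- barcodes, 12 were lower, 0 higher and 20 had intervals below 0, with a median of -1.08, beside 4.05% lower among all genes. *Ifi27l2a* was at 1272 CPM in run 2 and 5006 in run 1 among Foxp3+ barcodes, and at 1881 and 3760 CPM among Foxp3- barcodes. *Isg15*, which encodes a ubiquitin-like antiviral protein, was at 100.5 and 172 CPM, then at 58.1 and 259.5 CPM. In barcodes with 0 *Cd3e* UMIs *Ifi27l2a* was at 1358 CPM in run 2 and 1425 in run 1 and *Isg15* at 267 and 184 CPM. Over the whole list of 22 genes there, 7 were at least 2-fold lower in run 2 and 2 higher, with a median of -0.26, so part of the list was lower in run 2 in those barcodes too.

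For glycolysis and the hypoxia response, 9 of 15 genes tested were higher and 0 lower in Foxp3+ barcodes (median 1.18), and 6 of 17 were higher and 0 lower in Foxp3- barcodes (median 0.69). Among all genes tested, 17.2% were higher in Foxp3+ and 4.96% in Foxp3- barcodes. *Ldha*, which makes lactate, was at 1114 CPM in run 2 and 525 in run 1 among Foxp3+ barcodes, and *Pgk1*, a glycolytic kinase gene, at 595 and 208 CPM. *Bnip3*, a mitophagy gene induced by low oxygen, was at 84.9 CPM and 0 UMIs among Foxp3+ barcodes, and at 58.1 and 7.39 CPM among Foxp3- barcodes. Among Foxp3+ barcodes *Bnip3* passed the minimum through run 2 alone. These genes moved the same way in barcodes with 0 *Cd3e* UMIs, where *Ldha* was at 788 and 221 CPM, *Pgk1* at 645 and 148 CPM and *Bnip3* at 188 and 6.53 CPM. The part of free or myeloid RNA in the glycolysis values was not tested.

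**Figure D5:**
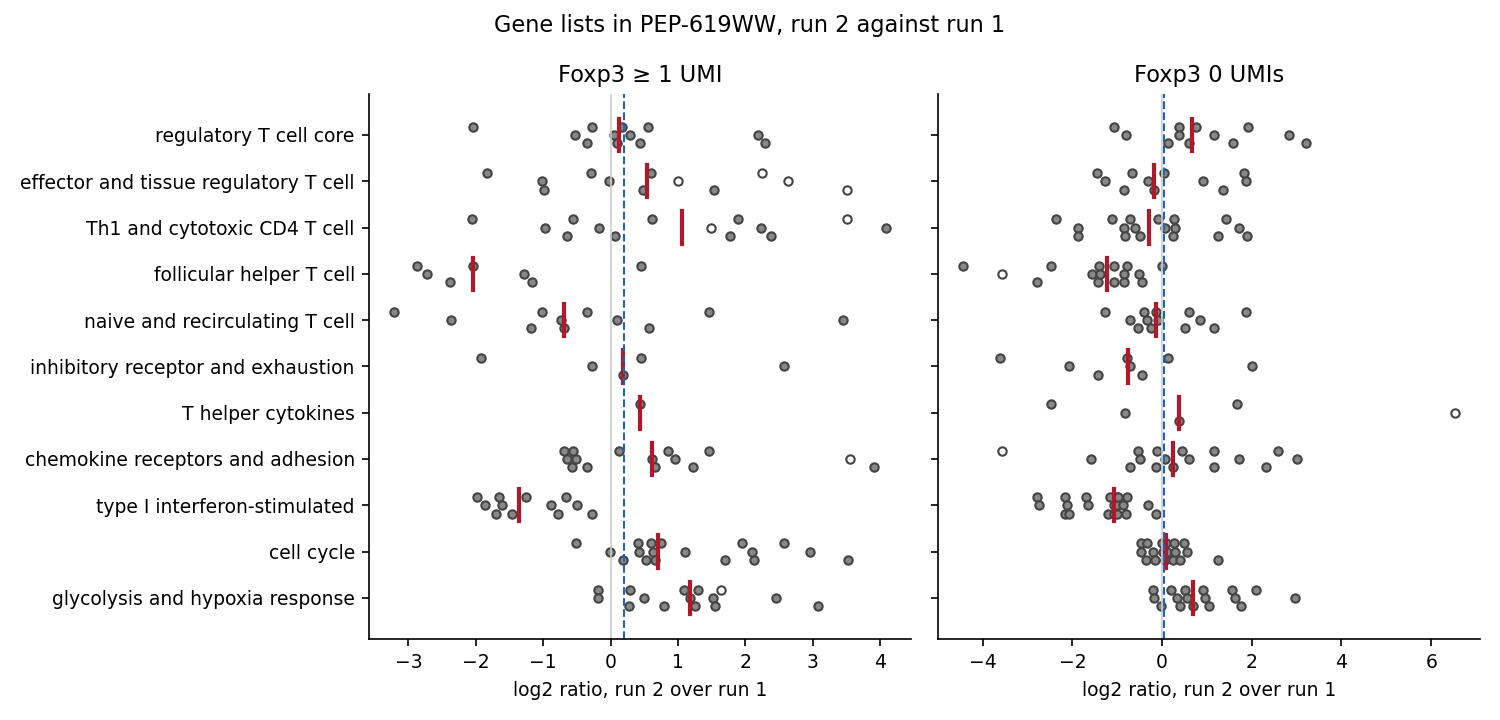
Log2 ratio of run 2 over run 1 (x axis) for each tested gene of 11 gene lists in Foxp3+ (left) and Foxp3- (right) gated barcodes of PEP-619WW, with a red bar for each list's median, a dashed blue line for the median of all tested genes and open circles for genes at 0 UMIs in a group, drawn at the floor of 3 counts. Follicular helper genes have medians of -2.03 and -1.24 and interferon-stimulated genes -1.36 and -1.08, and glycolysis genes have medians of 1.18 and 0.69.

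Some chemokine receptor genes differed between the runs. Of 15 receptor and adhesion genes tested in Foxp3+ barcodes, 4 were higher in run 2 and 0 lower (median 0.62, and -0.17 without barcodes that held *C1qa*, *C1qb* or *Lyz2*), beside 17.2% higher among all genes tested, and *Ccr7*, one of the 4, changed sign without the deepest barcodes. Of 17 tested in Foxp3- barcodes, 6 were higher and 2 lower (median 0.23), beside 4.96% and 4.05% of all genes. In barcodes with 0 *Cd3e* UMIs 13 of 24 were higher and 6 lower, with a median of 1.20. *Ccr2*, which guides cells to inflamed tissue, had 328 UMIs in 70 of 113 Foxp3+ barcodes of run 2 and 0 UMIs in the 14 of run 1, and was at 179 and 22.2 CPM in Foxp3- barcodes (3.02, 2.38 to 3.71). Among Foxp3+ barcodes it passed the minimum through run 2 alone. *Ccr2* stood at 816 CPM in run 2 barcodes with 0 *Cd3e* UMIs and at 66.0 in those of run 1. *Cxcr6*, at 246 and 74.8 CPM in Foxp3- barcodes, stood at 7.44 and 4.35 CPM in barcodes with 0 *Cd3e* UMIs.

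Markers of other cells moved with the run as well. Macrophage and monocyte genes summed to 3362 CPM in Foxp3+ barcodes of run 2 and 425 in run 1, and to 2357 and 573 CPM in Foxp3- barcodes. In run 1, 9 and 13 of the 14 were seen. Dendritic cell genes summed to 3639 and 326 CPM, then to 3411 and 169 CPM. B cell and plasma cell genes went the other way, at 418 and 2100 CPM, then at 150 and 4305 CPM, and neutrophil genes were at 468 and 127, then at 115 and 1886 CPM. The median log2 ratio of the 3 neutrophil genes tested in Foxp3- barcodes was -4.04, and -0.29 without barcodes that held *C1qa*, *C1qb* or *Lyz2*. In Foxp3+ barcodes *S100a8* and *S100a9* went from 2.74 and 1.84 to -1.78 and -2.93 when at least 2 *Foxp3* UMIs were required. In the gated barcodes the 6 melanocyte genes were near 0 in all 4 PEP-619WW groups, at 3.90 CPM or below, with *Pmel*, *Mlana* and *Tyrp1* at 0 UMIs, and all 6 hepatocyte genes were at 0 UMIs. Their part in the results was not tested gene by gene. Of the 601 and 244 genes higher in run 2, 240 and 130 stood below their level in barcodes of that library with 0 *Cd3e* UMIs, against 12 of the 167 and 40 of the 199 lower genes below that of run 1.

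*Ptpn22* and its partners mostly stayed within 2-fold. *Ptpn22* was at 119 CPM (122 UMIs) in Foxp3+ and 163 CPM in Foxp3- barcodes of run 2, and at 154 (17 UMIs) and 240 CPM in those of run 1, a log2 ratio of -0.56 (-0.88 to -0.25) between the Foxp3- groups. Of the 8 genes of *Ptpn22* and its partners in receptor signalling, 0 were 2-fold apart in run 2 or between the Foxp3- groups, with medians of -0.30 and -0.30. Between the Foxp3+ groups *Zap70*, a kinase of the receptor complex, was lower at 73.2 and 172 CPM (-1.23), with a median of -0.39 for the list. *Traf3* had 49 UMIs in run 2 and 1 in run 1, a log2 ratio of 2.40 (-0.14 to 7.73) whose interval included 0 and which was 0.72 with the barcode holding the most UMIs left out.

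The 7 PEP-WT members of run 2 were too few to set against the PEP-619WW members. They held 2769 to 32446 UMIs each. *Foxp3* was seen in 2 of them, at 4 and 1 UMIs, and *Ikzf2*, which encodes Helios, in 6 of the 7. *Xist* was seen in 5 and a Y-linked gene in the other 2. All 7 had at least 2 of *Il2ra*, *Ikzf2*, *Ctla4* and *Tnfrsf18*. The 6 melanocyte genes summed to 25.8 CPM in the Foxp3+ barcodes, where 1 of 2 held one. In the Foxp3- barcodes they summed to 106 CPM, and 2 of 5 held one. The count of 7 allows no statement on the genotypes.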

How the data were processed

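The authors aligned and counted reads with Cell Ranger (version 6.0.0 per the submitters' processing notes) on mm10, and the 4 deposited tables hold raw UMI counts for 32285 genes by barcode. Ensembl identifiers were matched to symbols through the gene name table given (32158 matched), and other names of listed genes through RefSeq synonyms. Barcodes were used as deposited. Doublets were neither called nor removed. Some genes are not reported here.

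UMIs were summed over the barcodes of a group and divided by the group's total (CPM). A gene was tested with at least 50 UMIs over both groups and called at a 2-fold difference, with a floor of 3 counts for groups at 0 and the gate genes left out. "Tested" means that size and interval were computed, with no p-value, since there was 1 library per genotype and run. Shares were also computed at 2000 and 1000 UMIs per barcode as the exact expectation over random thinning. Intervals of thinned shares and of their differences used the expected count rounded to the nearest whole number, so they are approximate. Differences of shares carry Newcombe intervals. Named genes were list members and the 12 per direction whose interval bound lay farthest from 0, at or above their level in barcodes of the library with 0 *Cd3e* UMIs. The members, lists and tests were chosen with earlier results of these data known. Alternatives changed the thinning, gate, *Foxp3* threshold, deep or myeloid-marked barcodes, quality, scaling, UMI minimum and fold. Scripts ran in Python 3.11.15 with numpy 2.4.6, scipy 1.17.1 and matplotlib 3.10.9, and were tested on simulated counts.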

Additional observations from a re-analysis of the deposited data

Results flagged for a closer look

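A set of 14 genes had opposite directions in the 2 PEP-619WW libraries: the 95% interval of the log2 ratio of Foxp3+ over Foxp3- barcodes lay on one side of 0 in run 2 and on the other in run 1. All 14 were members of the gene lists, and the share of all tested genes with such opposed intervals is not given. The difference between the runs was itself not tested, and run 1 had only 14 Foxp3+ barcodes. Higher in Foxp3+ barcodes of run 2 and lower in those of run 1 were *Gzmb* (granzyme B, 1.76 in run 2, with 0 against 178 UMIs in run 1), the chemokine genes *Ccl3* (1.07, with 0 against 200 UMIs in run 1) and *Ccl4* (0.51 and -5.47), *Gapdh* (a glycolysis enzyme, 0.54 and -0.27), *Pclaf* (1.43 and -1.24) and *Pcna* (0.51 and -1.76), both of DNA replication. The same held for genes of other cells: *Igkc* (immunoglobulin kappa, 2.17 and -1.82), *Lyz2* (myeloid lysozyme, 1.18 and -3.08), *S100a8* (2.01 and -4.78) and *S100a9* (2.19 and -3.45), both of neutrophils. With at least 2 *Foxp3* UMIs required, the run 2 ratios of *S100a8* and *S100a9* were -3.12 and -2.28.

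Lower in Foxp3+ barcodes of run 2 and higher in those of run 1 were *Ifi27l2a* (interferon-stimulated, -0.56 and 0.41), *Il1r2* (the decoy interleukin-1 receptor, -0.83 and 1.91), *Nfkbia* (the NF-kB inhibitor, -0.22 and 0.63) and *Tbc1d4* (-1.37 and 0.67).

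Under the alternatives that gave a value, 7 of the 14 kept their direction in both runs: *Ccl3*, *Ccl4*, *Gapdh*, *Gzmb*, *Igkc*, *Lyz2* and *Pcna*. In the Foxp3+ barcodes of run 1, *Gzmb* and *Ccl3* had 0 UMIs and *Ccl4* and *Lyz2* had 1. Thinning, rescaling or leaving out barcodes does not raise such counts, so their kept direction in run 1 says little. Thinned to 2000 UMIs, the run 1 log2 values of *Gzmb* and *Ccl3* were -0.64 and -0.89. Another direction appeared under at least 1 alternative in run 2 for *Ifi27l2a*, *Il1r2*, *Nfkbia*, *S100a8* and *S100a9*, and in run 1 for *Pclaf*, *S100a9* and *Tbc1d4*.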

How the results depend on the processing

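The 12 leading genes per direction, in the comparison within run 2 and the 2 between runs, were chosen for interval bounds far from 0. The choice used these same data, so a kept direction says little about stability. Some fell under 2-fold when thinned. At 1000 UMIs *Pclaf* (Foxp3+) went from 2.96 to 0.27 and *Cd70* (Foxp3-) from 3.39 to 0.36 between runs. *Hist1h2ae* (Foxp3+) went from 4.60 to 0.39 at 2000 UMIs. None of the leading genes changed direction under the alternatives that gave it a value. Of 210 other differences of list members at least 2-fold apart, 9 did under at least 1 alternative: *S100a8* and *S100a9* between Foxp3+ and Foxp3- barcodes of run 2 (2.01 and 2.19, against -3.12 and -2.28 with at least 2 *Foxp3* UMIs), and *Actn1*, *Apoe*, *Ccr7*, *Dusp2*, *Ly6c2*, *S100a8* and *S100a9* between runs in Foxp3+ barcodes. Of 47 medians of T cell lists 14 changed sign under at least 1 alternative, none of which was 2-fold from 0 as reported. Without barcodes that held *C1qa*, *C1qb* or *Lyz2*, the medians of macrophage and dendritic cell genes between Foxp3+ and Foxp3- barcodes of run 2 went from 0.44 and 0.05 to -1.04 and -1.71. Thinned to 1000 and 2000 UMIs, the gated share was 0.653% and 1.43% in PEP-619WW run 2, 0.382% and 1.18% in PEP-619WW run 1, 0.326% and 0.963% in PEP-WT run 1, and 0.00563% and 0.0234% in PEP-WT run 2. Without barcodes that held *C1qa*, *C1qb* or *Lyz2* it was 1.65%, 1.46%, 1.15% and 0.0105% in the same order. The difference in Foxp3+ share, 32.2 percentage points as counted, was 11.9 and 20.5 at 1000 and 2000 UMIs. Counts of genes at least 2-fold apart fell with fewer genes tested: from 342 to 44 and 74 between Foxp3+ and Foxp3- barcodes of run 2 (783 and 1446 of 4942 genes tested), from 768 to 73 and 136 between runs in Foxp3+ barcodes, and from 443 to 64 and 127 in Foxp3- barcodes. With a minimum of 20 or 100 UMIs the counts were 790 and 169, 1649 and 330, and 1003 and 217, and with a 1.5-fold call 1082, 1496 and 1261. With the mean of per-barcode CPM they were 501, 934 and 502. Without the deepest 10% of barcodes the first 2 counts were 224 and 508, and without the myeloid-marked barcodes the second was 340. The cause of these last changes was not tested, but fewer genes reached the minimum. Leaving out the barcode with the most UMIs of each gene, an alternative chosen after seeing the data, gave 330, 1092 and 398. For the second count it takes 1 of 14 barcodes in run 1 and 1 of 113 in run 2, which favours genes higher in run 2. A mean of at least 50 CPM over the groups in place of the UMI minimum, also chosen after seeing the data, gave 184, 626 and 238. Of the leading gene values 649 stayed within the main interval, 136 left it and 7 could not be given, and of the list medians 546 moved by under 0.5 on the log2 scale and 59 by more. No paired analysis was possible because each genotype had 1 library per run and the labels number no replicates.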

Other observations

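Other gene groups also differed between the runs. Of 12 interleukin-2 and STAT5 pathway genes tested in Foxp3- barcodes, 4 were at least 2-fold higher in run 2 than in run 1 and 1 lower, beside 4.96% and 4.05% of all genes. The median log2 ratio was 0.37 against 0.05 for all genes. The higher ones were *Il2ra*, *Jak3*, a kinase of the common gamma chain, and *Cish* and *Socs2*, which feed back on cytokine signals. *Cish* was at 91.6 CPM in run 2 and 22.2 in run 1 (2.05, 1.36 to 2.78). The survival gene *Bcl2* was at 82.6 and 317 CPM (-1.94, -2.35 to -1.55). In Foxp3+ barcodes 8 of the 13 genes were tested, 1 higher and 1 lower, with a median of 0.12, beside 17.2% and 4.78% of all genes. In barcodes with 0 *Cd3e* UMIs 7 of the 13 were at least 2-fold higher in run 2 and 0 lower, with a median of 1.04.

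Inhibitory receptor genes were lower in part in the Foxp3- barcodes of run 2. Of 8 tested in Foxp3- barcodes, *Lag3*, *Cd160* and *Tox* were at least 2-fold lower in run 2 and *Cd200r1* higher, 5 intervals lay below 0 and 1 above, and the median was -0.75. Among all genes, 4.05% were lower and 4.96% higher. In Foxp3+ barcodes 5 were tested, 1 higher and 1 lower, with a median of 0.19, beside 17.2% and 4.78% of all genes. In barcodes with 0 *Cd3e* UMIs 4 of 12 were higher and 2 lower. *Lag3* was at 37.4 and 157 CPM (-2.07, -2.69 to -1.49), and *Pdcd1*, which encodes PD-1, at 112 and 154 CPM (-0.46, -0.85 to -0.08). The heat shock genes *Hspa1a* and *Hspa1b* had 82 and 124 UMIs in Foxp3- barcodes of run 2 and 1 and 9 in run 1, and stood at 260 and 354 CPM in run 2 barcodes with 0 *Cd3e* UMIs against 1.53 and 2.20 in those of run 1. The metallothionein gene *Mt1*, which binds zinc and copper, was at 130 and 35.1 CPM in Foxp3- barcodes, and at 431 and 195 CPM in barcodes with 0 *Cd3e* UMIs.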
